A study of Mus musculus with 38 samples.

Results

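The genes described here are 10 members of the unfolded protein response of the endoplasmic reticulum (ER), Hspa5, Hsp90b1, Xbp1, Dnajb9, Herpud1, Pdia4, Pdia6, Calr, Sdf2l1 and Creld2, measured in brown adipose tissue of C57BL/6J mice. They were chosen by name among the 29411 gene names of the array, all 10 were found, and all 10 were among the 21624 genes that passed the filter on dim signals. The study followed weaned mice, 3 to 4 weeks old at the start, on 5 diets up to Week 18, day 140 on diet. There was 1 array per diet and time point (38 arrays). The LFC group received a low fat diet with 10% of calories from fat. The HFC group received a diet rich in fat, at 60% of calories, and in sucrose. The HF5, HF20 and HF75 groups received that same diet together with 5, 20 or 75 µg of KAL-1, a botanical formulation in water whose composition the labels do not give. LFC and HFC had 10 arrays each, from Day 6, Day 10, Day 14 and Weeks 0, 3, 6, 9, 12, 15 and 18, and each KAL-1 group had 6 arrays, from Weeks 3 to 18. Weeks were counted from day 14, so that Week 0 and Day 14 are the same day on diet. The series' own description speaks of 3 biological replicates and its protocol of 5 animals killed per group every 3 weeks, but the labels do not say how many animals each array holds, whether RNA was pooled, or the sex of the mice. With a single array per diet and time point, the time points served as replicates, and the p-values measure the spread over time points.

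Proteins that enter the secretory pathway fold inside the ER, and unfolded chains there are sensed by membrane proteins, chiefly IRE1 (Ern1), PERK (Eif2ak3) and ATF6. IRE1 splices the mRNA of the transcription factor XBP1, ATF6 is cut by Golgi proteases into an active factor, and both raise transcription of chaperones, folding enzymes and parts of the machinery that returns misfolded proteins to the cytosol for degradation. Brown adipocytes burn lipid to make heat and carry the uncoupling protein Ucp1. The array reads the total level of an mRNA and does not separate spliced from unspliced Xbp1.

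The response is wired through short promoter elements, and those found before the members are shown as description. The members were chosen by name as genes of this response, so their share with a match is no independent test. The ER stress response element (ERSE) is CCAAT, then 9 bases, then CCACG, and ERSE-II is ATTGG, then 1 base, then CCACG. The core of a further element, the UPRE, is TGACGTG. Each was searched on both strands in the 250 bases before the transcription start of every gene in the RefSeq promoter table (GRCm38.p6, 32851 promoters), where all 10 members had an entry. ERSE matched 5 of the 10 members and 0.113% of all promoters. ERSE-II matched only Herpud1 among the members and 0.0304% of all promoters, and the UPRE core matched only Hspa5 among the members and 1.65% of all promoters. The members with a match follow, with the matched letters in capitals (a match on the other strand reads CGTGG, 9 bases, ATTGG), and Pdia4, the member with the smallest adjusted p among the KAL-1 doses, is added for comparison; the sequences run 5′ to 3′ on the strand of the gene.
Hspa5 (chr2:34771913-34772063, + strand): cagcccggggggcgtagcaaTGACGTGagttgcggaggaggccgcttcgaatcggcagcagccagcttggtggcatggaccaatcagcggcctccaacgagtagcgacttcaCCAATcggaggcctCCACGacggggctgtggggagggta
Hsp90b1 (chr10:86705513-86705676, - strand): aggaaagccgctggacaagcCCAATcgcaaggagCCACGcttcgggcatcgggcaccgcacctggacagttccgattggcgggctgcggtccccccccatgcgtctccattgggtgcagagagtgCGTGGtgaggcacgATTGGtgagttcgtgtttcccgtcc
Herpud1 (chr8:94386357-94386407, + strand): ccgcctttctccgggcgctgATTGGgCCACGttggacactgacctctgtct
Pdia6 (chr12:17266471-17266529, + strand): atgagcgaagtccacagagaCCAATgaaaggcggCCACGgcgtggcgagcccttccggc
Calr (chr8:84847055-84847113, - strand): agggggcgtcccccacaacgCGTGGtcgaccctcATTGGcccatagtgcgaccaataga
Creld2 (chr15:88819500-88819558, + strand): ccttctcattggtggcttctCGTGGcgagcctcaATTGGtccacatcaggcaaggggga
Pdia4 (chr6:47813513-47813662, - strand): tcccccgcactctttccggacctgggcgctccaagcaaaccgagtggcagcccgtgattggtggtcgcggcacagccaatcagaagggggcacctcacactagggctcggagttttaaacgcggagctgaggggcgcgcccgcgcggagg
Hsp90b1 had 2 ERSE matches in its window, Hspa5 had 1 ERSE and 1 UPRE core, and Xbp1, Dnajb9, Pdia4 and Sdf2l1 had none of the 3 sequences in theirs. No match says only that these letters are not in the window searched.

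Values are log2 of the background-corrected spot signal minus the 75th percentile of the same array, so 0 is the level of that percentile and 1 is a doubling. A gene with several probes is represented by the probe with the highest mean, and levels of different genes are not compared. The 75th percentile before scaling ran from 35.1 to 1209 intensity units across arrays, and 11 arrays with a percentile above 600 are called bright below. Bright arrays were unevenly spread, with 4 of 10 in LFC, 2 of 10 in HFC, 0 of 6 in HF5, 4 of 6 in HF20 and 1 of 6 in HF75. The median of 7 brown adipocyte markers (Ucp1, Cidea and others) was between 2.08 and 6.98 on 37 arrays and -3.17 on the HF75 array of Week 3, where all 7 were at their lowest of the 38. 6 of the 7 were still well above background there. The markers of that array go against its tissue label. The HF75 changes named below are also given without it, except those with brightness in the model. In whole tissue, fewer cells of a type and less RNA per cell cannot be told apart.

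**Figure D1:**
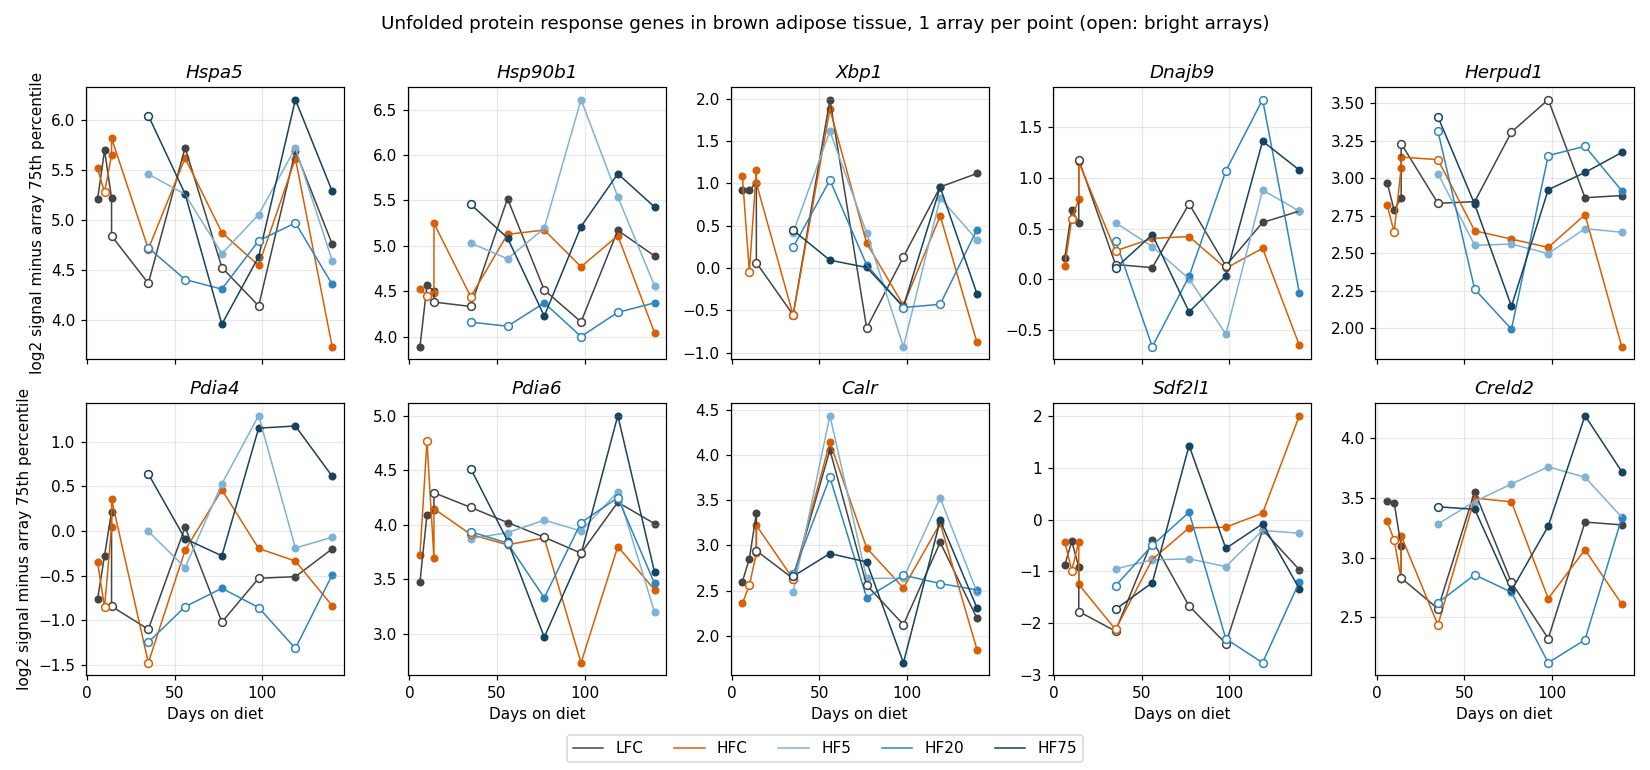
Level of each member (log2 signal minus the array's 75th percentile) against days on diet, 1 point per array, with a line for each diet group and open circles for the 11 bright arrays. Xbp1 and Calr peaked on day 56 (Week 6) in every group but HF75, and Sdf2l1 reached 2.01 in HFC on the last day.

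All 10 members were well above background on 38 of 38 arrays, and only 1 spot of 1 member, Hspa5, was saturated on 1 array. The widest range belonged to Sdf2l1, which encodes an ER-resident partner of the DNAJB11 co-chaperone, with 4.78 log2 units between its lowest value, -2.77 in HF20 at Week 15, and its highest, 2.01 in HFC at Week 18. The narrowest belonged to Herpud1, a membrane protein of ER-associated degradation, at 1.65 log2 units between 1.88 in HFC at Week 18 and 3.52 in LFC at Week 12. The other members ranged over 2.07 to 2.92 log2 units.

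The comparison of HFC with LFC asks what the diet rich in fat and sucrose did to these genes, and no member changed by the test. In limma with the time point as a block, 0 of 10 members passed an adjusted p of 0.05, and neither did any other gene (0% of 21624 genes). At an unadjusted p under 0.05, 1 of 10 members passed, against 7.08% of all genes. The median change of the members was -0.02 log2, beside 0.08 for all genes. Of the members 5 lay above 0 and 5 below, and 57.8% of all genes lay above 0. Markers of cell types also differed between the diets by value. T cell markers had a median change of 1.19 log2 and brown adipocyte markers 0.62, with 4 of 4 and 4 of 7 at an unadjusted p under 0.05. The other lists had medians from -0.21 (fibroblasts) to 0.90 (erythroid), and no marker passed the adjusted threshold. The part of cell types in the members' changes was not tested.

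Sdf2l1 was the member furthest from 0. Its values were -2.40 at the lowest, -0.94 at the median and -0.19 at the highest in LFC, and -2.12, -0.42 and 2.01 in HFC. The 2 groups overlapped widely, and HFC was the higher at 8 of 10 time points. The change was 0.76 log2 (SE 0.34, 95% interval 0.01 to 1.51), a 1.70-fold higher level, with an adjusted p of 0.655.
The level of Sdf2l1 also followed the brightness of the arrays, with a mean of -1.79 ± 0.67 on the 11 bright arrays and -0.42 ± 0.75 on the other 27 (± SD). With the brightness class in the model its change was 0.58 log2, and with log2 of each array's 75th percentile in the model it was 0.355. Without the HFC and LFC arrays of Week 18 it was 0.52. The part of brightness in this difference was not tested.

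The transcription factor and the chaperones gave small differences with wide intervals. Xbp1, the factor made through IRE1, was 0.17 log2 lower in HFC than in LFC by value (95% interval -0.78 to 0.44). Hspa5 (BiP), the main ATP-driven chaperone of the ER lumen and the protein that holds the sensors inactive, had values of 4.14, 5.02 and 5.72 (lowest, median, highest) in LFC and 3.73, 5.40 and 5.82 in HFC. Its groups overlapped almost wholly, and the difference was 0.12 log2 (95% interval -0.32 to 0.56). Hsp90b1 (GRP94), the HSP90 of the ER, gave 0.14 (SE 0.20), and Calr (calreticulin), a lectin chaperone for glycoproteins that also binds calcium, gave 0.01 (SE 0.16). Dnajb9 (ERdj4), a co-chaperone of BiP, gave -0.15 (SE 0.18), but its other probes gave 0.09 and 0.23, so its sign depends on the probe.

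The folding enzymes and the degradation factor were likewise not called. Pdia4 and Pdia6, which form and rearrange disulphide bonds, gave 0.16 (SE 0.24) and -0.21 (SE 0.18), and Creld2, an ER-stress-inducible protein with a disulphide isomerase activity, gave -0.05 (SE 0.17). Herpud1 gave -0.29 (SE 0.18) and was lower in HFC at 8 of 10 time points, as Pdia6 was, with adjusted p-values of 0.658 and 0.704. Intervals of this width leave room for changes of more than 0.3 log2 in either direction for Hspa5, Xbp1, Pdia4 and Calr. A change of that size in these genes is therefore not excluded by these arrays.

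Over Weeks 3 to 18 alone the diets were fitted together with the KAL-1 groups. An adjusted p of 0.05 was passed by 0 of 10 members and by 0.00925% of all genes, and an unadjusted p of 0.05 by 1 of 10 members (Sdf2l1) and 13.8% of all genes. Sdf2l1 was 1.12 log2 higher in HFC (SE 0.54, adjusted p = 0.36), Herpud1 -0.45 (SE 0.24, adjusted p = 0.374) and Pdia6 -0.41 (SE 0.24, adjusted p = 0.408). With the brightness class in the model these were 0.67, -0.32 and -0.33.

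**Figure D2:**
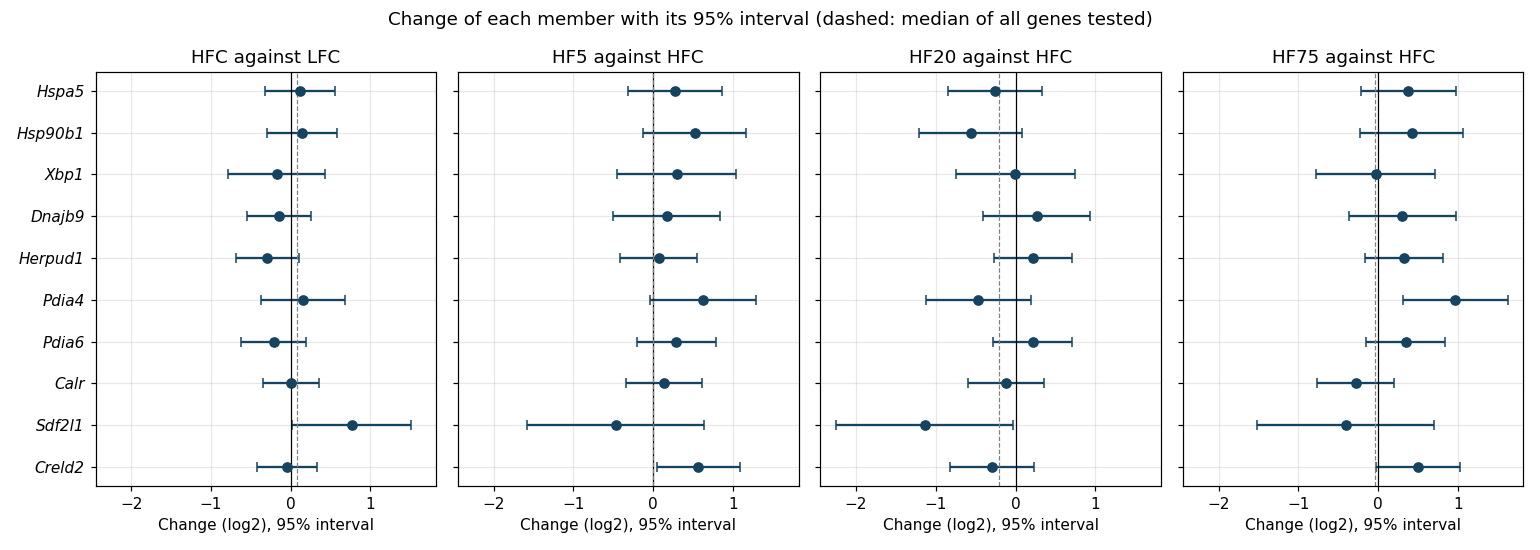
Change of each member in log2 units with its 95% interval, for HFC against LFC (20 arrays) and for each KAL-1 dose against HFC (30 arrays of Weeks 3 to 18), with a dashed line at the median of all genes tested. Most intervals span 0, and Pdia4 in HF75 lies at 0.97 with an interval from 0.31 to 1.63.

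Each KAL-1 dose was compared with HFC to ask whether the formulation moved the members on the same diet. None was called at any dose. An adjusted p of 0.05 was passed by 0 of 10 members and 0% of all genes in each of the 3 comparisons. At an unadjusted p under 0.05, 1 of 10 members passed in HF5 (Creld2, higher), 1 of 10 in HF20 (Sdf2l1, lower) and 1 of 10 in HF75 (Pdia4, higher). The same threshold was passed by 5.4%, 32.7% and 9.31% of all genes. The median change of the members was 0.28 in HF5, -0.19 in HF20 and 0.34 in HF75, beside 0.00 (HF5), -0.21 (HF20) and -0.04 (HF75) for all genes. The 3 comparisons share the HFC arrays.

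Pdia4 had the largest change with HF75. In HFC of Weeks 3 to 18 its values were -1.48 at the lowest, -0.28 at the median and 0.46 at the highest, and in HF75 they were -0.28, 0.63 and 1.18. The groups overlapped between -0.28 and 0.46, and HF75 was the higher in 5 of 6 weeks. The change was 0.97 log2 (SE 0.32, 95% interval 0.31 to 1.63), or 1.96-fold, with an adjusted p of 0.525. Without the HF75 array of Week 3, the one with the lowest brown adipocyte markers, the change was 0.84 (adjusted p = 0.795). In each week the HF75 and HFC arrays were of the same brightness class, so the class in the model could not move the change. It stayed at 0.97 (adjusted p = 0.178), and over 32 alternative settings it ran from 0.43 to 1.31.

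The other members had smaller changes with HF75. Creld2 gave 0.50 (SE 0.25), Hsp90b1 0.42 (SE 0.31), Hspa5 0.38 (SE 0.29), Pdia6 0.35 (SE 0.24), Herpud1 0.33 (SE 0.24) and Dnajb9 0.31 (SE 0.32). Values lay above 0 for 7 of the 10 members, beside 47.5% of all genes. They lay below 0 for 3 members, namely Sdf2l1 at -0.41, Calr at -0.28 and Xbp1 at -0.03. These are values of the highest-mean probe, and some signs depend on the probe. With every probe as its own row, the probes not chosen gave -0.03 for Hsp90b1 and 0.20 and -0.86 for Pdia6. They gave 0.39 and 0.19 for Dnajb9 and -0.27 for Calr. The Week 3 value of Hspa5 in HF75, 6.04, was the saturated spot. Without that array Hspa5 gave 0.21, Creld2 0.45, Hsp90b1 0.32, Pdia6 0.26, Herpud1 0.29, Dnajb9 0.38, Sdf2l1 -0.33, Calr -0.34 and Xbp1 -0.18, and the median of the 10 members was 0.28.

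With HF5 the values lay above 0 for 9 of 10 members, beside 50.2% of all genes. The largest were Pdia4 at 0.62 (SE 0.32), Creld2 at 0.57 (SE 0.25) and Hsp90b1 at 0.52 (SE 0.31). Creld2 was the steadiest of these, with 2.44, 2.86 and 3.50 (lowest, median, highest) in HFC and 3.28, 3.54 and 3.76 in HF5. HF5 was the higher in 5 of 6 weeks, and its adjusted p was 0.829. With HF20, Sdf2l1 gave -1.14 (SE 0.54, adjusted p = 0.147), Hsp90b1 -0.56 (SE 0.31) and Pdia4 -0.47 (SE 0.32). With the brightness class in the model these became -0.46 for Sdf2l1, -0.28 for Hsp90b1 and -0.13 for Pdia4. No member then passed an unadjusted p of 0.05 in HF20, but the share of all genes in that model was not counted.

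The test of differences among the 3 doses, a moderated F-test of HF5, HF20 and HF75, was the one comparison that called members. It called Pdia4 (adjusted p = 0.0329), Hsp90b1 (adjusted p = 0.0403) and Creld2 (adjusted p = 0.0408), 3 of 10, where 14% of all genes were called. At an unadjusted p under 0.05 the members were the same 3 of 10, beside 37.5% of all genes, so at that threshold the members were called no more often than the array as a whole. The adjusted p of the other 7 members ran from 0.178 for Hspa5 to 0.943 for Dnajb9.

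In all 3 called genes the HF20 level was the lowest of the 3 doses, and the interval of HF75 minus HF5 included 0. Pdia4 had values of -0.41, -0.04 and 1.29 (lowest, median, highest) in HF5, -1.31, -0.85 and -0.49 in HF20, and -0.28, 0.63 and 1.18 in HF75. The HF20 values did not overlap with those of either other dose. HF20 was 1.09 log2 below HF5 by value (change -1.09, SE 0.32), HF75 was 1.44 above HF20 (SE 0.32), and HF75 minus HF5 was 0.34 (95% interval -0.32 to 1.01).

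Hsp90b1 had values of 4.56, 5.11 and 6.61 in HF5, 4.00, 4.22 and 4.37 in HF20, and 4.23, 5.32 and 5.79 in HF75. HF20 did not overlap with HF5 and overlapped with HF75 only through the HF75 array of Week 9. The changes were -1.08 for HF20 minus HF5 (SE 0.31), 0.99 for HF75 minus HF20 (SE 0.31) and -0.10 for HF75 minus HF5 (95% interval -0.74 to 0.55). A second probe of Hsp90b1, also well above background on all 38 arrays, correlated with the first at r = 0.44 across arrays and was not called among the doses (adjusted p = 0.414), so the call rests on 1 of the 2 probes of that gene.

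Creld2 had values of 3.28, 3.54 and 3.76 in HF5, 2.12, 2.67 and 3.33 in HF20, and 2.73, 3.42 and 4.19 in HF75. HF20 was the lower in 6 of 6 weeks against HF5 and against HF75, though the ranges overlapped. The changes were -0.87 for HF20 minus HF5 (SE 0.25), 0.80 for HF75 minus HF20 (SE 0.25) and -0.07 for HF75 minus HF5 (95% interval -0.59 to 0.45).

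**Figure D3:**
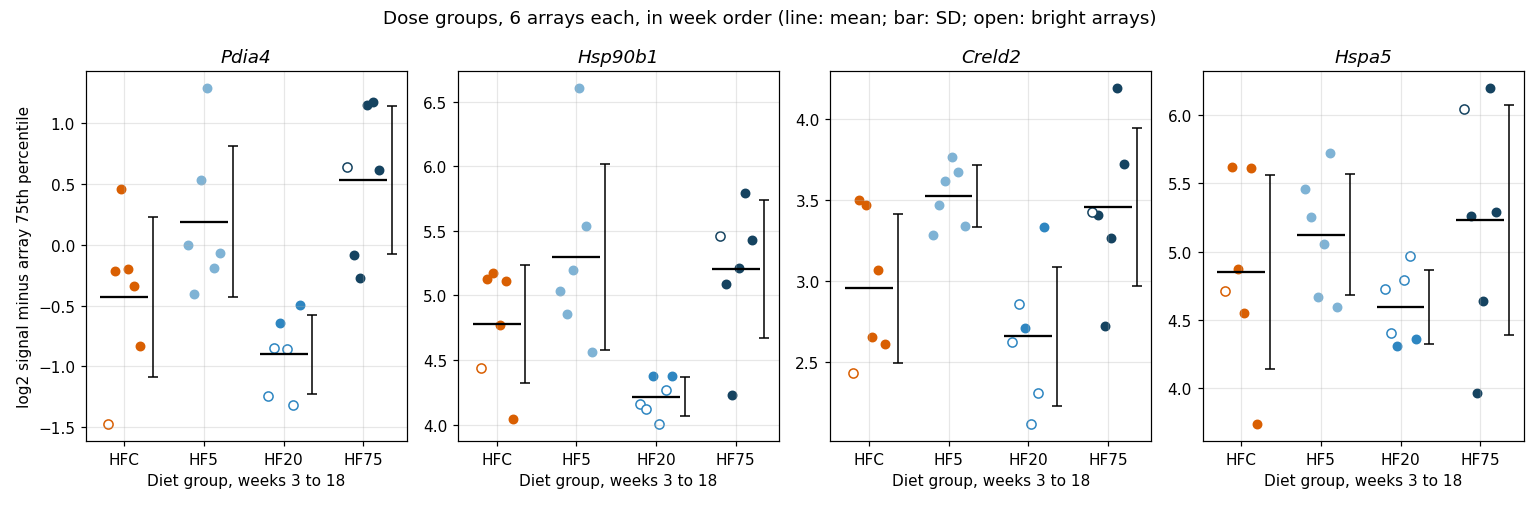
Levels of Pdia4, Hsp90b1, Creld2 and, for comparison, Hspa5 (log2 signal minus the array's 75th percentile) in HFC and the 3 KAL-1 groups, 6 arrays of Weeks 3 to 18 each in week order, with the mean as a line, the SD as a bar and open circles for bright arrays. The HF20 points of Pdia4 all lie below those of HF5 and HF75, and 4 of the 6 are from bright arrays.

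The HF20 group is also the one with most bright arrays, and these 3 genes were lower on bright arrays over the whole series. The mean was -0.86 ± 0.56 on bright and 0.00 ± 0.57 on other arrays for Pdia4, 4.39 ± 0.39 and 4.94 ± 0.58 for Hsp90b1, and 2.68 ± 0.39 and 3.31 ± 0.37 for Creld2 (± SD, 11 and 27 arrays). With the brightness class in the model, 0 members and 0 genes were called among the doses by limma, and the adjusted p was 0.307 for Pdia4, 0.529 for Hsp90b1 and 0.549 for Creld2. At an unadjusted p under 0.05, 1 of 10 members (Pdia4) then passed, but the share of all genes in that model was not counted. With the class in the model HF75 minus HF20 was 1.099 for Pdia4 (95% interval 0.42 to 1.78), 0.70 for Hsp90b1 (0.02 to 1.39) and 0.54 for Creld2 (0.01 to 1.08). These values include the HF75 array of Week 3, the only bright one of HF75. It held the highest value among bright arrays for all 3 genes, and the model was not fitted without it. HF20 minus HF5 was -0.64 for Pdia4 (-1.38 to 0.10), -0.71 for Hsp90b1 (-1.45 to 0.03) and -0.52 for Creld2 (-1.10 to 0.06).
The direction within a class can be read from few weeks. In the 2 weeks in which the HF20 and HF5 arrays were of the same class, the mean difference of HF20 minus HF5 was -0.80 for Pdia4, -0.50 for Hsp90b1 and -0.46 for Creld2. In the 3 such weeks for HF75 and HF20, HF75 minus HF20 was 1.12 for Pdia4 (above 0 in 3 of 3), 0.74 for Hsp90b1 (2 of 3) and 0.40 for Creld2 (3 of 3). Week 3 is among those weeks, and without it the means were 0.73 for Pdia4, 0.45 for Hsp90b1 and 0.20 for Creld2.
The level of endothelial markers differed between bright and other arrays as well. The median of 4 such markers (Pecam1, Cdh5, Kdr and Tek, of which 3 were called among the doses) ran from 3.02 to 4.53 on the 27 other arrays. It ran from 0.11 to 1.95 on the bright arrays, except the HF75 array of Week 3 at 3.44. In HF20 it was 0.11 to 0.98 on the 4 bright arrays and 3.74 and 4.16 on the other 2, while HF5, with no bright array, ran from 3.55 to 4.35. Erythroid markers had medians of -0.29 to 2.23 on bright and 1.49 to 7.03 on other arrays, and white adipocyte markers -1.96 to 0.98 and -6.33 to -1.65. In LFC, brown adipocyte markers had 5.28 to 6.46 on bright and 2.08 to 2.92 on other arrays. Muscle, macrophage, lymphocyte and fibroblast markers overlapped widely between the classes. The part of brightness and of cell types in the dose differences was not tested. Without the HF75 array of Week 3, 0 members and 0 genes of the whole array were called by the F-test. The adjusted p-values were 0.0621 for Pdia4, 0.0673 for Hsp90b1 and 0.0679 for Creld2. The changes of HF75 minus HF20 were then 1.31 for Pdia4, 0.88 for Hsp90b1 and 0.74 for Creld2, and those of HF75 minus HF5 were 0.22 for Pdia4, -0.20 for Hsp90b1 and -0.12 for Creld2. Of the 24 omissions of a single array of the KAL-1 or HFC groups, 10 kept 3 members called, and 0 members were called in 6 (HF20 of Week 3, 6, 12 or 15 and HF75 of Week 3 or 12 left out). In those 6, 0 genes were called over the whole array.

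Levels over time were examined in LFC and HFC together, as a slope per 30 days on diet. No member was called (0 of 10, where 1.12% of all genes were), and 0 of 10 passed an unadjusted p of 0.05, beside 20.8% of all genes. Slopes ran from -0.16 per 30 days for Hspa5 (SE 0.09, adjusted p = 0.28) to 0.24 for Sdf2l1 (SE 0.12, adjusted p = 0.26). Of the 10 slopes, 8 lay below 0 and 2 above, beside 53.2% of all genes above 0. This fit counts the arrays of 1 time point as independent, which they may not be.

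The question whether the diet effect changed with time was asked through the difference between the HFC and LFC slopes. An adjusted p of 0.05 was passed by 0 of 10 members and 0% of all genes, and an unadjusted p of 0.05 by 1 of 10 members, Sdf2l1, and 15.1% of all genes. The difference for Sdf2l1 was 0.48 log2 per 30 days (SE 0.17, adjusted p = 0.215), and 8 of the other 9 members lay below 0, down to -0.28 for Xbp1 (SE 0.16). Over all genes, 49.4% lay above 0. Sdf2l1 in HFC had values of -2.12 at Week 3, then -0.77, -0.16, -0.14, 0.13 and 2.01 up to Week 18, while LFC had -2.15, -0.40, -1.67, -2.40, -0.19 and -0.97 in the same weeks. Without the Week 18 arrays the difference was 0.31 (adjusted p = 0.647), and with log2 of the 75th percentile in the model it was 0.335. The HFC array of Week 18 had a 75th percentile of 49.8 intensity units, among the lowest of the 38 arrays.

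Weeks 6 and 18 stood out for several members at once and are described without a test. At Week 6, Xbp1 was at 1.99 in LFC, 1.88 in HFC, 1.62 in HF5 and 1.04 in HF20, the highest value of each of these groups, and at 0.09 in HF75. Calr did the same, with 4.05, 4.14, 4.43 and 3.75 in those 4 groups, again their highest, and 2.91 in HF75. The Week 6 arrays of LFC, HFC and HF5 were scanned on 1 day and those of HF20 and HF75 on another. The part of scan day in these values was not tested.
At Week 18, the HFC array held the lowest value of all 38 arrays for Hspa5 (3.73) and Herpud1 (1.88), the lowest of its group for Hsp90b1 (4.05), Xbp1 (-0.88), Dnajb9 (-0.65) and Calr (1.85), and the highest of all 38 for Sdf2l1 (2.01). Sdf2l1 thus stood at the opposite end from 6 other members on the same array.

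Members that share a role did not all vary together across the 38 arrays. Of the 45 pairs of members, 37 had a positive Pearson r, with a median of 0.24 and a range from -0.78 to 0.79. The points share arrays, brightness and time points, so these values describe the arrays and carry no test. All r values and ranks here and below include the HF75 array of Week 3 and were not computed without it. That array was the highest of the bright arrays for Hspa5, Hsp90b1, Pdia4 and Creld2. The closest pairs were Hsp90b1 with Pdia4 (r = 0.79), Hsp90b1 with Creld2 (0.74) and Pdia4 with Creld2 (0.72), the 3 genes called among the doses. Xbp1 and Calr followed at 0.70. With the mean of each brightness class removed these became 0.74, 0.67, 0.56 and 0.71. Other pairs were then as close, with Hspa5 and Pdia6 at 0.73, Pdia6 and Creld2 at 0.67, and Hspa5 and Creld2 at 0.59.

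The lowest values belonged to Sdf2l1. Its r with Herpud1 was -0.78, with Dnajb9 -0.44 and with Pdia6 -0.39, but 5 of its 9 values were above 0, up to 0.28 with Creld2 and 0.25 with Pdia4. With the class means removed 0 of the 9 were above 0, and with the slope on log2 of the 75th percentile removed 3 were (Xbp1 0.24, Calr 0.23 and Hspa5 0.05). Sdf2l1 and Herpud1 also followed the 75th percentile of the arrays in opposite directions, at r = -0.69 and 0.66 with its log2, and with that slope removed from both their r was -0.59.

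**Figure D4:**
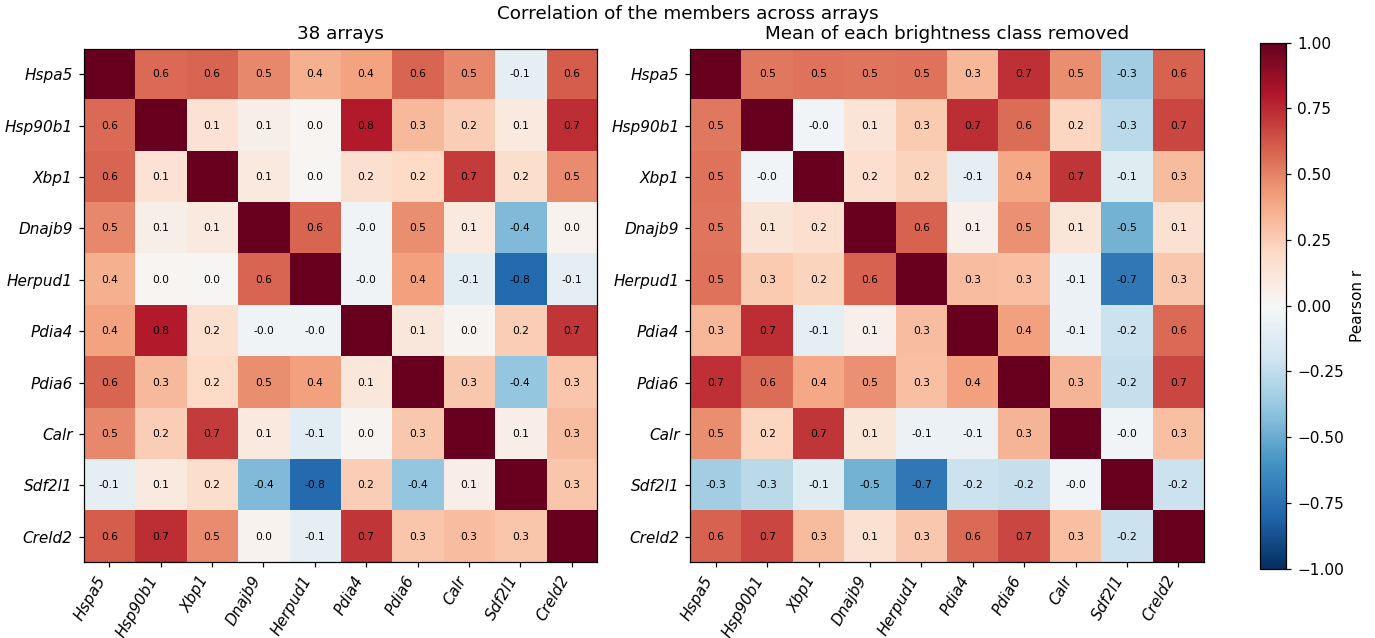
Pearson r between members across the 38 arrays, on the values as they are (left) and after the mean of each brightness class was removed (right). Hsp90b1, Pdia4 and Creld2 are positive with one another in both panels, and Sdf2l1 is negative with Herpud1 in both. In the right panel Hspa5 and Pdia6 are as close to Creld2 as Pdia4 is.

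**Figure D5:**
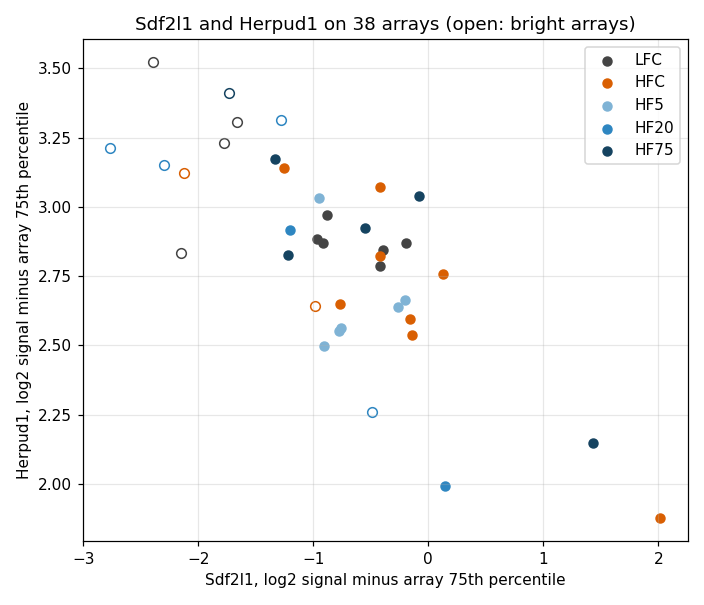
Herpud1 against Sdf2l1 (log2 signal minus the array's 75th percentile) on the 38 arrays, coloured by diet group, with open circles for bright arrays. The HFC array of Week 18 lies at 2.01 for Sdf2l1 and 1.88 for Herpud1, the lower right corner.

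Taking Hspa5 as the reference of the response, its closest members across 38 arrays were Creld2 (r = 0.60, rank 631 of 20622 genes without missing values), Xbp1 (0.58, rank 772) and Pdia6 (0.58, rank 815), and Sdf2l1 had r = -0.09. The 5 genes most like Hspa5 outside the members were Ifrd1 (r = 0.85), Rlim (0.85), Ccrn4l (0.84), Akap11 (0.84) and Zfp46 (0.835). With the class means removed they were Ifrd1 (0.86), AA536743 (0.85), Asb4 (0.85), Rlim (0.84) and Slc35f5 (0.84), and Pdia6 moved to rank 140 with r = 0.73.

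Genes of the wider ER pathway, from lists set by role, gave the same counts for HFC against LFC. None of them was called, neither of the 7 sensors and transducers, the 13 tested of 14 further lumenal chaperones and folding enzymes, the 10 genes of ER-associated degradation, the 9 of the translocon and ER exit, nor the 7 of the PERK branch. The median changes of these lists were 0.11, -0.11, -0.24, -0.17 and 0.21 log2, beside 0.08 for all genes. Adding brightness class to the fit gave medians of 0.08, -0.12, -0.14, -0.06 and -0.12, so that of the PERK branch turned from above to below 0. In the sensor list the smallest p-values belonged to Ern1, which encodes IRE1 (0.53, SE 0.27), Mbtps1, which makes the first cut in ATF6 (-0.34, SE 0.19), and the ER-anchored transcription factor Nfe2l1 (-0.28, SE 0.21). Among chaperones they belonged to Sdf2, a relative of Sdf2l1 (-0.58, SE 0.21), and to the nucleotide exchange factors of BiP, Sil1 (-0.63, SE 0.31) and Hyou1 (-0.34, SE 0.26). In degradation they belonged to Ubxn4 (-0.35, SE 0.17), the membrane protein Derl1 (-0.73, SE 0.36) and the ubiquitin ligase Syvn1 (-0.28, SE 0.19). In the translocon list they belonged to Ssr1 (-0.39, SE 0.18), the signal peptidase subunit Spcs3 (0.40, SE 0.18) and the channel subunit Sec61b (-0.29, SE 0.18). In the PERK branch they belonged to Trib3 (-0.28, SE 0.18), Ddit3, which encodes CHOP (0.21, SE 0.15), and the phosphatase subunit Ppp1r15b (-0.38, SE 0.31). All had an adjusted p of 0.655 or above.

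Among the doses, 2 of these 46 tested genes were called (4.35%), beside 14% of all genes. Mbtps2, the protease that makes the second cut in ATF6, had an adjusted p of 0.0347, with -0.07 in HF5, -1.15 in HF20 and 0.77 in HF75 against HFC. Edem2, a mannosidase that marks glycoproteins for degradation, had an adjusted p of 0.0329, with 0.03, 0.36 and -1.08. With the brightness class in the model neither was called. The HF20 change of Mbtps2 was then -0.38, beside -0.33 in HF5, and the HF75 changes of Mbtps2 and Edem2 stayed at 0.77 and -1.08. Without the HF75 array of Week 3 their HF75 changes were 0.83 for Mbtps2 and -1.10 for Edem2, and neither was called among the doses (adjusted p = 0.0621 for each).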

How the data were processed

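Total RNA of brown adipose tissue was labelled with Cy3 and hybridised to a custom Agilent mouse array with 1 colour. The deposited scanner files hold spot intensity after background subtraction by Feature Extraction (version 10.5.1.1 in the files, 9.1 in the submitters' processing notes), and the authors did not scale these intensities between arrays. The deposited table of log2 ratios, which the authors made against LFC arrays of the same time point, served as an alternative. Its Week 15 columns for the 4 non-LFC groups had correlations of -0.0048 to 0.0029 with the scanner files when joined on the probe, and of 0.986 to 0.999 when joined in the order of the array's spots. Both joins were tried.

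From the intensity, log2 minus the 75th percentile of each array was computed, spots of a probe were averaged, and the highest-mean probe of each gene name was kept. A gene was tested if well above background on at least 6 arrays. Tests used limma 3.58.1 in R 4.3.3 (lmFit and eBayes, two-sided, Benjamini-Hochberg over 21624 genes, threshold 0.05), with the time point as a block except in the trend. The block follows the study's own comparison of arrays of the same time point. Deviations of HFC and LFC arrays of the same time point correlated at -0.245 to 0.675, above 0.1 in 7 of 10 pairs. Alternatives covered background correction, normalisation, filters, probes, slide, scan day, brightness, array weights and arrays left out. The scripts were tested on simulated data.

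Every member was named with values. From each pathway list, the text names the 3 genes with the smallest p for HFC against LFC and those that passed the threshold. The 5 genes most like Hspa5 were chosen by Pearson r. The members and lists were chosen with earlier results of these data known, and the ERSE-II motif was added after the files were seen. In the lists, Ppp1r15a is named Myd116 on the array, and Dnajb11 did not pass the filter. Promoters came from RefSeq (GRCm38.p6). The number of arrays limits the precision.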

Additional observations from a re-analysis of the deposited data

Results flagged for a closer look

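Among 50 sets of values (10 members in 5 groups), 3 held a sample far from the others, and chance alone sets apart about 1 in 20. Calr reached 3.75 in HF20 at Week 6. Herpud1 reached 3.03 in HF5 at Week 3, and it was at 1.88 in HFC at Week 18. Differences among the 3 KAL-1 doses passed the limma F-test for Pdia4 (adjusted p = 0.0329), Hsp90b1 (adjusted p = 0.0403) and Creld2 (adjusted p = 0.0408), with HF20 the lowest in each. The part of array brightness in these 3 differences was not tested.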

How the results depend on the processing

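No member was called for HFC against LFC or for any dose against HFC under any alternative run. The 3 members called among the doses became 0 with the brightness class in the model, with normexp background correction, without the filter on dim genes, and with log2 of the 75th percentile in the model, and the genes called fell from 3034 to 0 in each. They became 1 with scan day in place of the time point (2322 genes) and 2 with no replicate block (1371 genes), where the adjusted p of Creld2 was 0.0563. They stayed at 3 with slide as a random block (6472 genes), array weights (6150 genes) and every probe as its own row (4364 genes). Leaving out 1 time point or 1 array gave 0 to 3 members and 0 to 6710 genes. The counts of members and of genes were both 0 without the arrays of Week 3, 6, 12 or 15, and among single arrays without HF20 Week 3, 6, 12 or 15 or HF75 Week 3 or 12. The count of members was 1 without HF5 Week 3, 9 or 15 or HF75 Week 6 or 15. The scan day, the 75th percentile as a covariate and single arrays were chosen after seeing the data. The cause was not tested.

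For the trend, normexp called 3 members (Hspa5, Calr and Creld2) and 542 genes against 0 members and 243 genes, moved the members' median from -0.08 to -0.20 and turned Hsp90b1 from 0.06 to -0.17. The trend called 1599 genes with brightness, 1666 with array weights, 907 with quantile normalisation, 56 with Day 14 and Week 0 averaged, 42 with a filter on every array, 25 without a filter, and 2 with the time point or the scan day as a random block or the 75th percentile as a covariate. For diet by day, brightness called 645 genes and array weights 962, against 0. There the members' median moved from -0.16 to -0.036 without Week 18 (range with arrays left out -0.17 to -0.036). The same ranges were -0.08 to 0.04 for HFC against LFC, -0.15 to 0.15 in Weeks 3 to 18, 0.08 to 0.40 for HF5, -0.36 to -0.07 for HF20, 0.165 to 0.56 for HF75 and -0.10 to -0.03 for the trend. Of 3010 values of single members under the alternatives, 58 lost a call (all among the doses), 3 gained one (all in the trend) and 156 changed sign. Over all genes, the calls for HFC against LFC went from 0 to 3 with array weights and 5 in a fit on all 38 arrays, for Weeks 3 to 18 from 2 to between 0 and 6, for HF5 from 0 to 4 with array weights, and for HF20 and HF75 from 0 to 1 at most, except with arrays left out, where HF20 reached 4130 genes (without HFC Week 3) and HF75 reached 2. With 1 array left out the trend called 3 (without HFC Week 18) to 1255 genes (without LFC Week 12), and diet by day called up to 422 (without LFC Week 0).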
